A study of Ananas comosus with 9 samples.

Results

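The peel of pineapple fruit (Ananas comosus) 90 days after flowering (DAF) was compared with the peel of both a younger and an older fruit age. The series is about anthocyanins and the change of peel colour during maturation. It holds 9 RNA-seq libraries from peels, 3 at each of 60, 90 and 120 DAF, and the labels give no cultivar, treatment or other factor. The 3 libraries of 90 DAF were set against the mean of 60 and 120 DAF in 1 fit of all 9, so that a gene stands out where its level is above or below that mean. Such genes can be highest or lowest at the middle age, or differ mainly from 1 of the other ages. Of 26730 genes in the deposited table, 16791 reached at least 1 FPKM (fragments per kilobase of transcript, scaled to library size) in at least 3 libraries and were tested. The filter takes no account of age, so a gene present at 90 DAF only could pass through the group in which it is high.

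As background, the green peel of a young fruit carries working chloroplasts, in which antenna proteins pass light energy to photosystems and an electron transport chain. Chlorophyll and these proteins are lost as many fruits mature. Pineapple is a CAM plant, in which phosphoenolpyruvate carboxylase makes organic acids that are stored in the vacuole by its proton pumps. Jasmonate is a lipid hormone made in chloroplast and peroxisome, and circadian clock genes set the daily rhythm of many of these processes.

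Library totals ran from 35038248 to 52937826 counts. Among the 90 DAF libraries replicates 2 and 3 correlated at r = 0.871 (Pearson, log2 counts across genes, which are not independent replicates), the lowest value within an age, and the 60 DAF libraries had correlations of 0.896 to 0.907 with replicate 1. Replicate 1 of 90 DAF and replicate 2 of 120 DAF correlated at 0.906, and without both of them 769 genes were called in place of 1521. Green-tissue genes were highest in replicate 2 of 90 DAF. The summed level of the 24 antenna genes was 590, 2769 and 349 FPKM in replicates 1, 2 and 3 of 90 DAF, 124 to 252 FPKM at 60 DAF and 36.8 to 56.1 FPKM at 120 DAF, and 2 of the 24 had 0 counts in all libraries. For the 74 genes of cutin, suberine and wax synthesis, which mark the peel surface, the sum was 649 to 759 FPKM at 90 DAF, 481 to 554 FPKM at 60 DAF and 374 to 459 FPKM at 120 DAF, with 19 at 0 counts throughout. The 72 DNA replication genes, which mark dividing cells, summed to 1073 to 1402 FPKM at 90 DAF, 1334 to 1413 FPKM at 60 DAF and 1229 to 1432 FPKM at 120 DAF. The part of these differences in tissue makeup in the results was not tested, and in whole peel fewer cells of a type and less RNA per cell cannot be told apart. Nothing in the labels gives the 3 libraries of an age separate fruits or plants as their source, and the p-values then measure sample spread that could be technical. The hour of sampling is not given either, so for genes with a daily rhythm age and time of day cannot be told apart.

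At 90 DAF 1521 genes (9.06%) differed from the mean of the other ages at an adjusted p under 0.05 by edgeR's quasi-likelihood test, 922 of them higher (5.49%) and 599 lower (3.57%). In 587 of the higher genes (3.5% of those tested) every 90 DAF library lay above all 6 others after TMM scaling, and these are called peak genes below. In 475 of the lower genes (2.83%) every 90 DAF library lay below the other 6, and these are called dip genes. The same separation, called or not, was seen upward in 1005 genes (5.99%) and downward in 1009 (6.01%). The fitted 90 DAF level was above both other ages in 889 of the 922 higher genes and below both in 585 of the 599 lower ones. The drop to 120 DAF was the larger step in 799 of the higher genes, and the gap to 120 DAF was the larger one in 476 of the lower genes. Calls depended on single libraries: 278 of the higher genes (1.66% of genes tested) and 154 of the lower ones (0.917%) passed whichever library was left out. At least 549 genes (without replicate 3 of 60 DAF) were called with 1 library left out, and fewer than 922, except without replicate 3 of 90 DAF (1493) and replicate 2 of 120 DAF (1449). Genes whose calls held through all 9 such fits were favoured in the text below, a choice made after their values were seen. Genes whose calls were lost in some fits are named too, some of them first in their passage.

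Among the 46 gene lists drawn in the plot of list shares, and leaving out the one with 5 tested members, those with the highest share higher at 90 DAF were the antenna proteins and photosynthesis, followed by motor proteins, very long chain fatty acid elongation and sugar acid and pectin conversion. Those with the highest share lower were oxidative phosphorylation, glycolysis and the proteasome. Smaller enzyme and complex lists added after the values were seen are outside this order, and some of them had higher shares, such as 56.2% lower of 16 mitochondrial ATP synthase genes and 50% higher of 10 cytoskeleton genes. The median log2 difference over all genes tested was 0.03. Counts of called list members below are to be read against 5.49% higher and 3.57% lower over all genes tested. Scaling by total counts in place of TMM raised the median of all genes by 0.16 on the log2 scale, to 0.18, and changed the split from 922 higher and 599 lower to 1343 and 360, and limma on log2(FPKM + 1) gave 1077 and 448.

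**Figure D1:**
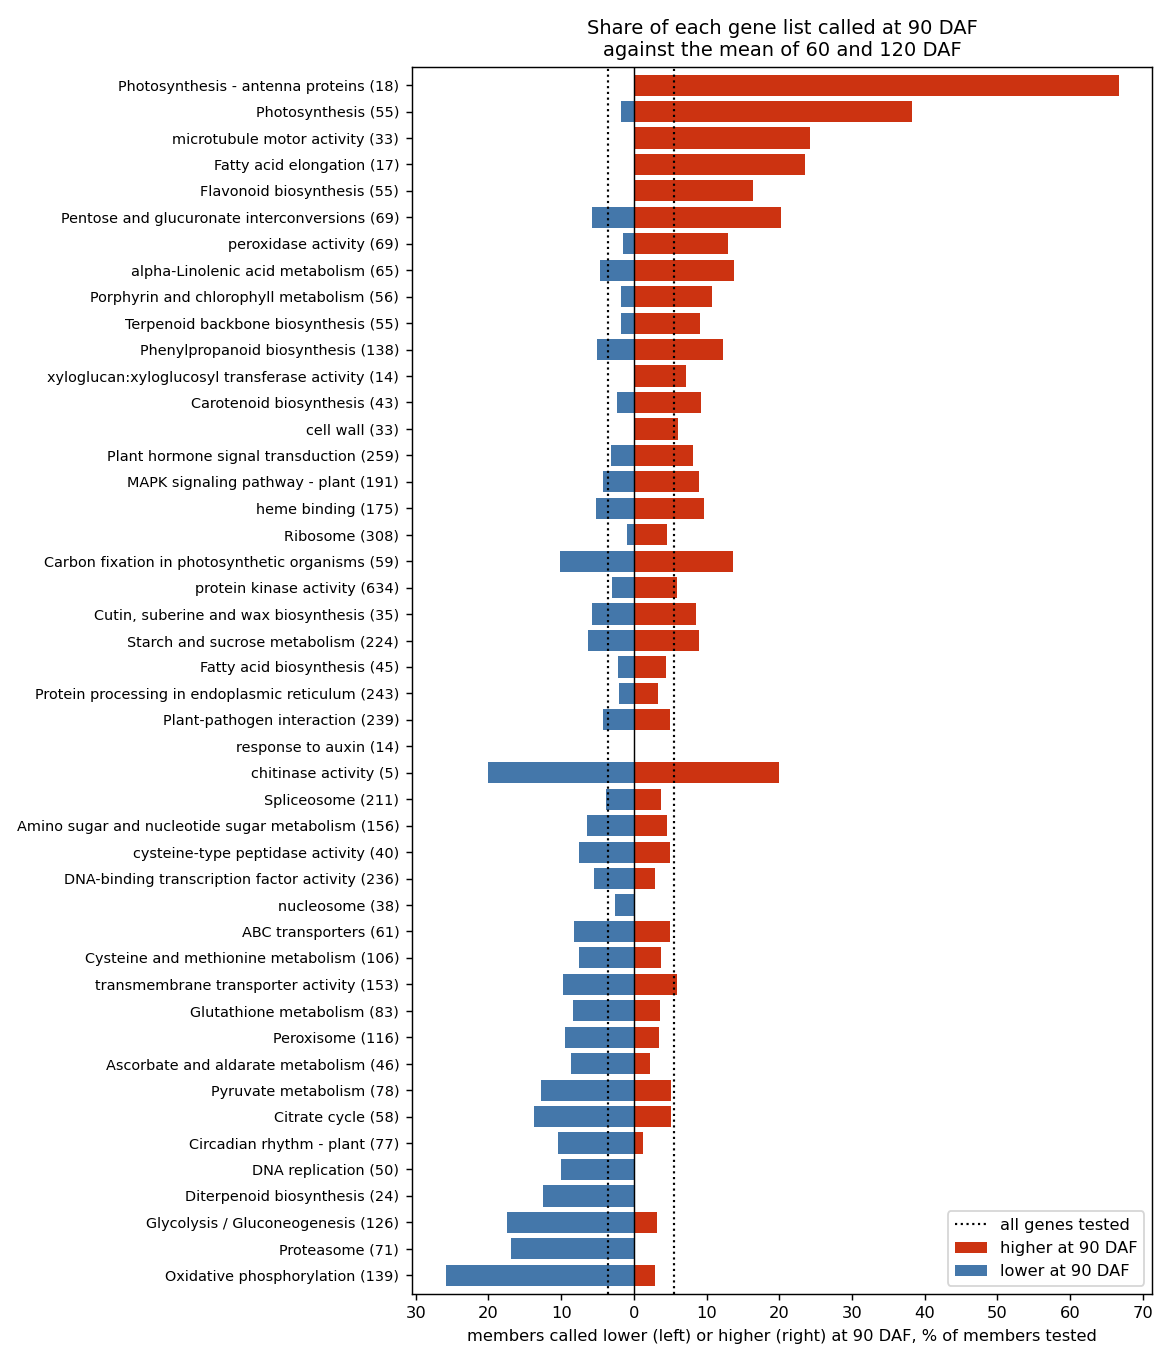
Share of the tested members of 46 gene lists called lower (left, blue) or higher (right, red) at 90 DAF against the mean of 60 and 120 DAF, in percent, with the number of members tested in parentheses; dotted lines mark the shares over all genes tested, 5.49% higher and 3.57% lower. Antenna proteins (66.7% higher) and photosynthesis (38.2% higher) stand at one end, and oxidative phosphorylation (25.9% lower) has the largest share of lower genes among the lists.

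Most antenna protein genes and a smaller share of the photosynthesis genes were called higher at 90 DAF. Of 18 tested antenna protein genes 12 were higher and 0 lower, 8 of them peak genes, with a median log2 difference of 3.46. In the photosynthesis pathway 21 of 55 tested genes were higher and 1 lower, and the median was 1.62. Of the 21 only 5 were peak genes, a smaller part than the 587 of 922 higher genes over all genes tested. Against 60 DAF alone 1 of the 18 antenna genes and 0 of the 55 photosynthesis genes were called, where 0.786% of all genes were. Against 120 DAF alone 12 of the 18 and 25 of the 55 were higher and 0 and 2 lower, beside 9.17% higher and 8.19% lower of all genes. The antenna calls held best, with 8 of the 12 passing whichever library was left out, against 5 of the 21 photosynthesis genes. The photosynthesis count fell to 5 to 12 without any one library other than replicate 1 (15) or replicate 3 (27) of 90 DAF. Without replicate 2 of 90 DAF, where these genes were highest, the medians were 2.16 for antenna proteins and 0.90 for photosynthesis.

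The chlorophyll a/b-binding protein gene Aco003394 (contig 18, 2565225 to 2567306 in the deposited table), of the LHCB5 type found in the photosystem II antenna, had the largest log2 difference among the named antenna genes. It stood at 94.1, 501 and 56.0 FPKM in the 3 libraries of 90 DAF, at 6.74, 9.60 and 6.79 FPKM at 60 DAF and at 0.590, 0.579 and 0.815 FPKM at 120 DAF. All 90 DAF values lay above all others, and the log2 difference was 6.38 ± 0.64 (SE, adjusted p = 0.0042 by edgeR) and 4.88 without replicate 2 of 90 DAF. LHCA1 type Aco018510, a photosystem I antenna gene, showed 95.0, 329 and 75.7 FPKM at 90 DAF, against 10.4 to 20.8 FPKM at 60 DAF and 1.01 to 2.36 FPKM at 120 DAF. Its log2 difference was 4.72 ± 0.51 (adjusted p = 0.00445) and 3.79 without replicate 2 of 90 DAF. LHCA4 type Aco001089, the most highly expressed antenna gene, had 89.1, 545 and 37.1 FPKM at 90 DAF, 13.7, 23.8 and 17.9 FPKM at 60 DAF and 2.96, 1.69 and 4.04 FPKM at 120 DAF. The groups did not overlap in either gene. For Aco001089 the log2 difference of 4.74 ± 0.73 (adjusted p = 0.012) became 2.93 without replicate 2. The photosystem II antenna genes Aco026888 (LHCB2 type, 3.60 ± 0.48, adjusted p = 0.00787) and Aco009134 (LHCB3 type, 5.04 ± 0.71, adjusted p = 0.00898) were higher too, with 2.46 and 4.14 without replicate 2.

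The photosystem I genes described here are 3 called members of the photosynthesis list. PsaN (Aco003308), a subunit on the side where plastocyanin docks, stood at 18.9, 131 and 12.5 FPKM at 90 DAF, 2.82 to 7.05 FPKM at 60 DAF and 0.133 to 0.974 FPKM at 120 DAF. Its log2 difference was 4.86 ± 0.81 (adjusted p = 0.0146) and 3.11 without replicate 2 of 90 DAF. PsaL (Aco016098) had 112, 442 and 61.5 FPKM at 90 DAF, 30.3 to 48.9 FPKM at 60 DAF and 3.28 to 7.29 FPKM at 120 DAF, a log2 difference of 3.53 ± 0.55 (adjusted p = 0.0124) and 2.32 without replicate 2. For both the 90 DAF libraries lay above all others. PsaD (Aco023778), the docking site of ferredoxin, was higher by 4.32 ± 0.81 (adjusted p = 0.0199). Its adjusted p was 0.0535, 0.0512 and 0.054 without replicates 1, 2 and 3 of 60 DAF and 0.0538 without replicate 2 of 90 DAF.

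Calls of other thylakoid genes differed in how well they held. The NDH complex subunit PnsB5 (Aco004218), of the chloroplast machinery that cycles electrons around photosystem I, had 71.3, 228 and 18.7 FPKM at 90 DAF, 2.09 to 5.18 FPKM at 60 DAF and 1.49 to 2.20 FPKM at 120 DAF. Here the log2 difference was 5.17 ± 0.64 (adjusted p = 0.00648) and 3.93 without replicate 2. PsbS (Aco017705), which triggers the release of excess light energy as heat, had 71.9, 312 and 26.0 FPKM at 90 DAF, against 13.2, 31.2 and 9.55 FPKM at 60 DAF and 0.265, 0.181 and 0 FPKM at 120 DAF. Its lowest 90 DAF value lay within the 60 DAF range, so the log2 difference of 6.15 ± 0.88 (adjusted p = 0.00925, 4.68 without replicate 2 of 90 DAF) rested mainly on the 120 DAF level. Plastocyanin Aco013075, the copper protein that feeds photosystem I, reached 622 FPKM in replicate 2 of 90 DAF but 56.9 and 22.9 FPKM in replicates 1 and 3, against 15.2 to 30.6 FPKM at 60 DAF. The value of 4.59 ± 0.87 (adjusted p = 0.0209) became 2.05 without replicate 2, and the adjusted p was 0.0592, 0.0538 and 0.0596 without replicates 1, 2 and 3 of 60 DAF and 0.0536 without replicate 3 of 120 DAF. Ferredoxin Aco024340, the most highly expressed gene of the photosynthesis list, was not called. It stood at 444, 569 and 331 FPKM at 90 DAF, 308 to 325 FPKM at 60 DAF and 389 to 434 FPKM at 120 DAF (0.16 ± 0.15, adjusted p = 0.557, and -0.03 without replicate 2 of 90 DAF).

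**Figure D2:**
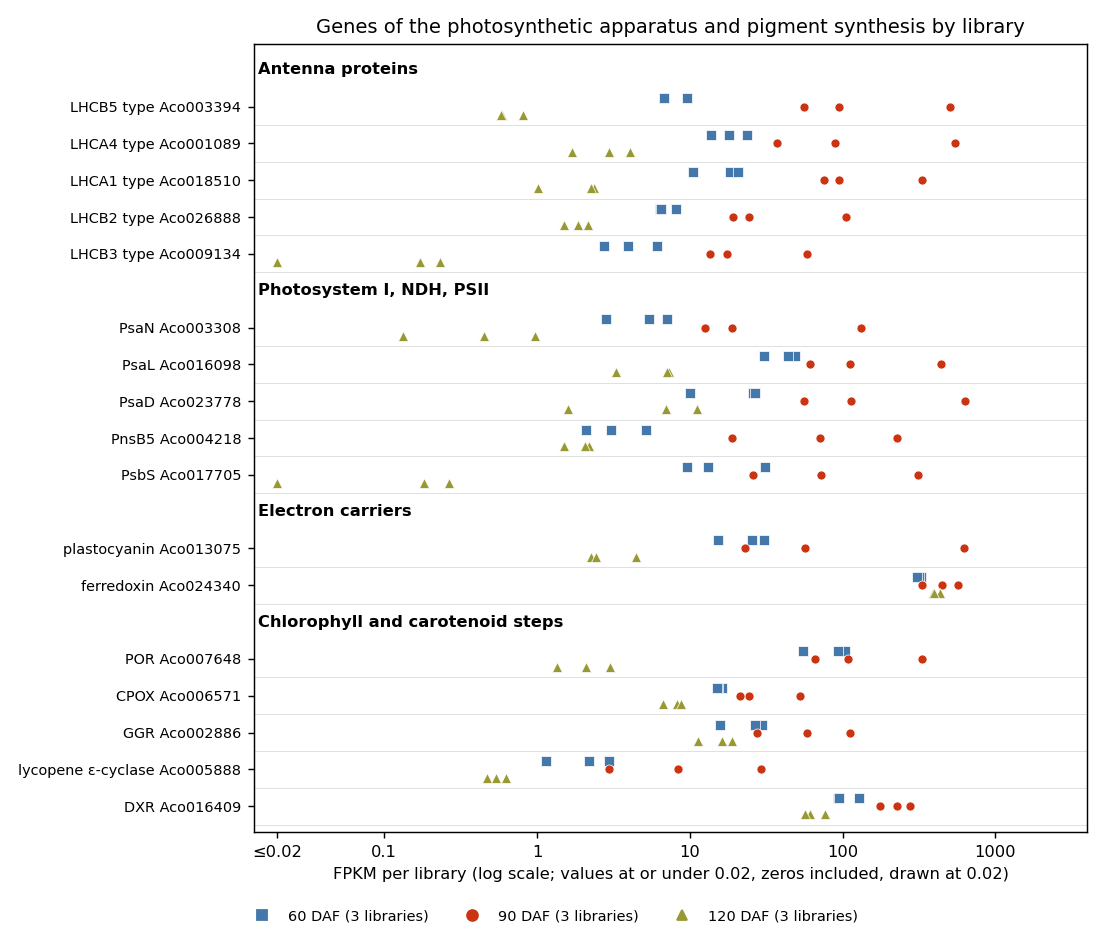
FPKM per library (log axis, values at or under 0.02 drawn at 0.02) of genes for antenna proteins, photosystem and thylakoid subunits, electron carriers and pigment synthesis, with squares for 60 DAF, circles for 90 DAF and triangles for 120 DAF, 3 libraries each. The 90 DAF circles of the antenna genes lie to the right of all other symbols, with replicate 2 farthest out (501 FPKM for Aco003394), while ferredoxin Aco024340 lies at 308 to 569 FPKM at every age.

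The pigment pathways moved in a few steps and not as a whole. Of 56 tested genes of porphyrin and chlorophyll metabolism 6 were higher (10.7%) and 1 lower (1.79%), against 5.49% and 3.57% of all genes (median 0.35). The higher count ran from 1 to 16 with single libraries left out. It was 16 without replicate 3 of 90 DAF and 1 or 2 without any one of the 60 DAF libraries or replicate 1 or 3 of 120 DAF. Protochlorophyllide reductase Aco007648 (POR), the light-dependent step of chlorophyll synthesis, had 108, 332 and 65.6 FPKM at 90 DAF, 55.2 to 103 FPKM at 60 DAF and 1.34 to 3.002 FPKM at 120 DAF. Its 90 and 60 DAF ranges overlapped, and the log2 difference of 3.46 ± 0.48 (adjusted p = 0.0086) was 2.53 without replicate 2. Coproporphyrinogen oxidase Aco006571 (CPOX), an earlier step, stood at 24.4, 52.4 and 21.3 FPKM at 90 DAF, 15.1 to 16.2 FPKM at 60 DAF and 6.63 to 8.74 FPKM at 120 DAF (1.40 ± 0.27, adjusted p = 0.0211). Its groups did not overlap, but the adjusted p was 0.0507, 0.0537 and 0.056 without replicates 1, 2 and 3 of 60 DAF. Geranylgeranyl reductase Aco002886 (GGR), which makes the phytol tail of chlorophyll, was higher with all 9 libraries (1.60 ± 0.37, adjusted p = 0.0369). Its adjusted p was 0.0614 to 0.107 without any one library other than replicate 3 of 90 DAF, with a log2 difference of 0.995 without replicate 2 of 90 DAF.

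In carotenoid synthesis 4 of 43 tested genes were higher (9.3%) and 1 lower (2.33%), against 5.49% and 3.57% of all genes. The higher count was 2 without any one 60 DAF library, replicate 2 of 90 DAF or replicate 1 of 120 DAF and 9 without replicate 3 of 90 DAF. Lycopene epsilon-cyclase Aco005888, the branch step towards the leaf pigment lutein, had 8.35, 29.4 and 2.97 FPKM at 90 DAF, 1.15 to 2.96 FPKM at 60 DAF and 0.470 to 0.627 FPKM at 120 DAF. The log2 difference was 3.47 ± 0.59 (adjusted p = 0.0154) and 2.22 without replicate 2 of 90 DAF, and replicate 3 of 90 DAF all but met the highest 60 DAF value. In the terpenoid backbone pathway, which supplies carotenoids and phytol, 5 of 55 were higher (9.09%) and 1 lower (1.82%), against the same shares of all genes. The pathway had 1 to 3 higher without any one library other than replicate 3 of 90 DAF (4). There DXR (Aco016409), the first committed enzyme of the plastid route, had 278, 227 and 176 FPKM at 90 DAF, 92.5, 128 and 95.3 FPKM at 60 DAF and 61.2, 76.2 and 56.4 FPKM at 120 DAF. All 90 DAF values lay above the others (1.299 ± 0.15, adjusted p = 0.00565), and replicate 2 was not the highest. DXR also differed from each age alone, by 1.09 from 60 DAF (adjusted p = 0.0451) and by 1.51 from 120 DAF (adjusted p = 0.00344). The call against 60 DAF alone was lost without any one 60 DAF library or replicate 3 of 120 DAF, when no gene was called higher against that age. Only 2 genes in all were called higher against it without replicate 1 of 90 DAF.

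Carbon fixation genes moved both ways, with 8 of 59 higher (13.6%), 6 lower (10.2%) and a median of -0.04, against 5.49% and 3.57% of all genes. The higher count was 1 to 5 without any one library other than replicates 1 (6) and 3 (11) of 90 DAF. Phosphoribulokinase Aco017282, a Calvin cycle enzyme of the chloroplast, stood at 18.3, 254 and 10.2 FPKM at 90 DAF, 9.39 to 23.5 FPKM at 60 DAF and 0.427 to 0.639 FPKM at 120 DAF. Its 90 DAF level rested on replicate 2, without which the log2 difference of 4.81 ± 0.90 (adjusted p = 0.0202) was 2.12. The adjusted p was 0.0575 and 0.0586 without replicates 1 and 3 of 60 DAF and 0.0526 and 0.0521 without replicates 1 and 3 of 120 DAF. The lower members of the list were glycolytic enzymes, a malate dehydrogenase and phosphoenolpyruvate carboxylase, which are described with carbon metabolism below.

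A few genes of jasmonate synthesis were higher at 90 DAF, but the pathway list as a whole was close to the median of all genes. Of 65 tested genes of alpha-linolenic acid metabolism, the pathway that holds jasmonate synthesis, 9 were higher and 3 lower (median 0.13). Of the 9 higher genes 7 were peak genes, against 587 of 922 over all genes tested. Against 60 DAF alone none of the 65 were called, where 0.786% of all genes were. Against 120 DAF alone 8 were higher and 9 lower, beside 9.17% and 8.19% of all genes. The count of higher genes was 5 without replicate 3 of 60 DAF or replicate 2 of 90 DAF, and that of lower genes was 1 without the latter. By enzyme, a grouping chosen after the values were seen, 3 of 5 lipoxygenases, both tested allene oxide synthases, the single allene oxide cyclase and 2 of 9 OPC-8:0 CoA ligases were higher, against 0 of 15 oxophytodienoate reductases. Here the highest library was often replicate 3 of 90 DAF, in contrast to the green genes.

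The DAD1 type lipase Aco002305, of a class that frees fatty acids from chloroplast lipids, had 141, 145 and 97.0 FPKM at 90 DAF, 33.3 to 70.4 FPKM at 60 DAF and 43.5 to 63.4 FPKM at 120 DAF. The difference of 1.19 ± 0.22 (adjusted p = 0.0199) had an adjusted p of 0.0537, 0.0519 and 0.055 without replicate 3 of 60 DAF and replicates 1 and 2 of 90 DAF. Lipoxygenase Aco013541, which oxygenates linolenic acid, stood at 361, 311 and 265 FPKM at 90 DAF, 55.0, 102 and 52.2 FPKM at 60 DAF and 27.1, 98.0 and 33.6 FPKM at 120 DAF. All 3 libraries of 90 DAF were at least 265 FPKM and none of the others was above 102 FPKM. This gene was 4.65-fold higher (log2 difference 2.22 ± 0.39, adjusted p = 0.0165), whichever library was left out. The lipoxygenases Aco002604 (1.98 ± 0.51, adjusted p = 0.0496) and Aco003977 (2.29 ± 0.54, adjusted p = 0.0382) lost their calls without any of 7 libraries each, with adjusted p-values up to 0.157 and 0.0964.

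Allene oxide synthase (AOS) and allene oxide cyclase (AOC) turn the oxygenated fatty acid into the ring of the hormone. AOS gene Aco013319 had 328, 139 and 436 FPKM at 90 DAF, 37.4, 61.7 and 16.4 FPKM at 60 DAF and 52.8, 98.5 and 62.6 FPKM at 120 DAF. It was 5.31-fold higher (2.41 ± 0.46, adjusted p = 0.0212) without overlap, but the adjusted p was 0.0561 without replicate 1 of 60 DAF and 0.0528 and 0.0508 without replicates 1 and 3 of 120 DAF. The other AOS gene, Aco008572, was less variable at 40.2, 48.4 and 52.4 FPKM at 90 DAF, against 10.1 to 22.6 FPKM at 60 DAF and 18.6 to 25.8 FPKM at 120 DAF. Its difference of 1.18 ± 0.25 (adjusted p = 0.0267) had adjusted p-values of 0.0659, 0.0637, 0.0577 and 0.0574 without replicate 3 of 60 DAF, replicates 2 and 3 of 90 DAF and replicate 3 of 120 DAF. AOC (Aco006060) stood at 747, 550 and 2042 FPKM at 90 DAF, 119, 201 and 118 FPKM at 60 DAF and 93.9, 236.9 and 167 FPKM at 120 DAF. The means were 1113 ± 811 FPKM at 90 DAF, 146 ± 47.5 FPKM at 60 DAF and 166 ± 71.5 FPKM at 120 DAF (SD, n = 3). AOC was 6.77-fold higher (2.76 ± 0.47, adjusted p = 0.0157), and without replicate 3 of 90 DAF the log2 difference was 1.85 and still called. Its lowest 90 DAF value, 550 FPKM, was above the highest of the 6 others, 236.9 FPKM.

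OPC-8:0 CoA ligases activate the side chain before it is shortened. The OPCL1 type genes Aco008090 (6.97, 10.48 and 10.43 FPKM at 90 DAF, 2.56 to 4.01 FPKM at 60 DAF and 0 to 0.231 FPKM at 120 DAF) and Aco003498 (2.22 to 3.04, 0.719 to 2.22 and 0.0617 to 0.144 FPKM in the same order of ages) were low throughout. Their log2 differences were 3.82 ± 0.59 (adjusted p = 0.012, and 4.58 without replicate 2 of 120 DAF) and 2.64 ± 0.39 (adjusted p = 0.011). Both drew most of their difference from 120 DAF, and the ranges of Aco003498 at 60 and 90 DAF met. The hydroperoxide lyase type gene Aco000052, which diverts the same substrate to leaf aldehydes, went the other way, with 5.69, 3.43 and 0.620 FPKM at 90 DAF, 11.6 to 19.3 FPKM at 60 DAF and 25.9 to 55.2 FPKM at 120 DAF. The log2 difference of -3.15 ± 0.63 (adjusted p = 0.0242) was -3.78 without replicate 1 of 90 DAF. The adjusted p was 0.0522 and 0.0548 without replicates 1 and 3 of 60 DAF, 0.0671 without replicate 2 of 90 DAF and 0.0502 without replicate 1 of 120 DAF.

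Among the genes of jasmonate signalling, JAZ proteins repress the response and are themselves made in response to the hormone, and MYC2 is the main activator. All 7 tested JAZ genes had log2 differences above 0 (median 1.21), against 8764 of 16791 over all genes tested, and 2 were called higher. Under the MYC2 ortholog 3 of 15 genes were higher and 0 lower (1 higher without replicate 3 of 60 DAF or replicate 2 of 90 DAF). JAZ gene Aco009497 stood at 249, 246 and 519 FPKM at 90 DAF, 49.6 to 106 FPKM at 60 DAF and 94.5 to 149 FPKM at 120 DAF. Its groups did not overlap (1.61 ± 0.36, adjusted p = 0.0332), yet the call was lost without any one library other than replicates 1 and 2 of 90 DAF, with adjusted p-values of 0.0548 to 0.0761. For JAZ gene Aco023684 (2.69 ± 0.69, adjusted p = 0.0492) the call held without replicate 2 of 90 DAF only, and the adjusted p was otherwise 0.0629 to 0.117. MYC2 type Aco005839 had 54.2, 50.6 and 81.3 FPKM at 90 DAF, 26.7, 17.9 and 28.2 FPKM at 60 DAF and 12.8, 10.7 and 17.2 FPKM at 120 DAF. It was 3.13-fold higher (1.64 ± 0.26, adjusted p = 0.0133) whichever library was left out, with no overlap. MYC2 type Aco015882 was higher by 2.21 ± 0.43 (adjusted p = 0.0221), with 0.0596, 0.0582 and 0.0515 without replicate 3 of 60 DAF, replicate 2 of 90 DAF and replicate 1 of 120 DAF.

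**Figure D3:**
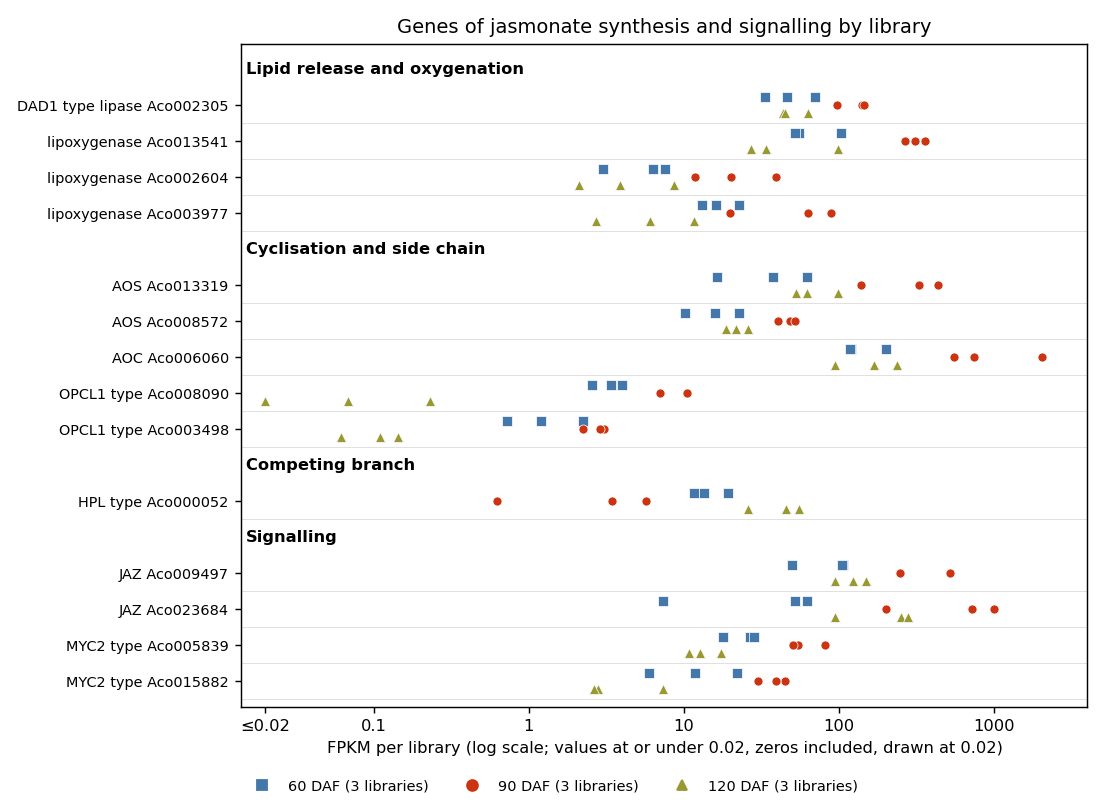
FPKM per library (log axis, values at or under 0.02 drawn at 0.02) of genes of jasmonate synthesis and signalling and of the competing hydroperoxide lyase branch, with squares for 60 DAF, circles for 90 DAF and triangles for 120 DAF, 3 libraries each. Lipoxygenase Aco013541, both AOS genes, AOC and MYC2 type Aco005839 have every circle to the right of every other symbol, and the hydroperoxide lyase type gene Aco000052 has its circles to the left.

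Genes under the GO term for the cell wall were called higher at a share near that of all genes, with 2 of 33 tested higher (6.06%, against 5.49% of all genes) and 0 lower. Of 69 tested genes of pentose and glucuronate interconversions, the pathway that holds the pectin enzymes, 14 were higher and 4 lower (median 0.24). Of the 14 higher genes 12 were peak genes, against 587 of 922 over all genes tested. The higher count was 6 to 8 without any one library other than replicate 3 of 90 DAF (12) or replicates 1 (10) and 2 (15) of 120 DAF. Pectate lyase Aco014640, which cuts the pectin backbone, stood at 37.1, 42.7 and 34.0 FPKM at 90 DAF, 10.2, 10.1 and 10.6 FPKM at 60 DAF and 0.613, 1.52 and 0.543 FPKM at 120 DAF. The libraries of an age lay close together and the ages far apart, and the gene was 11.3-fold higher (3.49 ± 0.28, adjusted p = 0.00233). The exo-polygalacturonase genes Aco027461 (1.44 ± 0.15, adjusted p = 0.00445) and Aco015507 (1.497 ± 0.16, adjusted p = 0.00445) were also higher, with means of 40.2 ± 5.66 and 39.99 ± 10.2 FPKM at 90 DAF (SD, n = 3). They carry the same position in the deposited table (contig 4, 13030443 to 13033930), so their reads may be shared and they are counted here as 1 observation. Exo-polygalacturonase Aco020905 had 766 counts summed over the 90 DAF libraries, 31 at 60 DAF and 0 at 120 DAF (adjusted p = 0.0161). It was low, at 2.52 to 5.04 FPKM at 90 DAF, and reached 1 FPKM at that age only, through which it passed the filter.

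Among genes for enzymes that act on cellulose and xyloglucan, 3 peak genes are described without a claim on the group. The xyloglucan endotransglucosylase gene Aco009326, named from its GO term, had 23.6, 20.4 and 26.8 FPKM at 90 DAF, 7.70, 5.21 and 2.31 FPKM at 60 DAF and 0.289, 0.192 and 0 FPKM at 120 DAF (4.51 ± 0.66, adjusted p = 0.00989). It was the only 1 of 14 tested genes of that activity called (7.14%, near the 5.49% higher over all genes). Endoglucanase Aco013120 stood at 102, 94.5 and 190 FPKM at 90 DAF, 49.2 to 52.6 FPKM at 60 DAF and 10.9 to 18.6 FPKM at 120 DAF, 4.35-fold higher (2.12 ± 0.28, adjusted p = 0.0073). Endoglucanase Aco009636 was 6.09-fold higher (2.61 ± 0.43, adjusted p = 0.0138), at 105 to 162 FPKM against 51.4 to 69.9 and 3.11 to 12.6 FPKM. In all 3 genes the 90 DAF libraries lay above the rest, and 60 DAF lay above 120 DAF.

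Several genes for tubulins, the subunits of microtubules, were higher at 90 DAF. Under the GO term for structural constituents of the cytoskeleton, a list chosen after the values were seen, 5 of 10 tested genes were higher and 0 lower (median 1.63). Of the 5 higher genes 4 were peak genes, against 587 of 922 over all genes tested. In this list 4 or 5 were called whichever library was left out. Alpha-tubulin Aco023603 had 54.7, 93.9 and 77.5 FPKM at 90 DAF, 35.6, 38.9 and 40.9 FPKM at 60 DAF and 14.3, 12.7 and 14.1 FPKM at 120 DAF (1.57 ± 0.18, adjusted p = 0.00556). Alpha-tubulin Aco004993 reached 330, 195.7 and 605 FPKM, against 112 to 116 and 17.9 to 51.6 FPKM (2.57 ± 0.44, adjusted p = 0.0156, and 1.94 without replicate 3 of 90 DAF). Beta-tubulin Aco024265 was low, at 5.43 to 6.60 FPKM at 90 DAF against 2.85 to 4.10 and 0.147 to 0.284 FPKM, and 5.99-fold higher (2.58 ± 0.27, adjusted p = 0.00445). None of the 3 tubulins overlapped between 90 DAF and the other ages. Microtubule motors, the kinesins, had 8 of 33 higher and 0 lower (median 0.45), but 1 to 4 without any one library other than replicate 2 of 120 DAF (10), the 1 without replicate 3 of 60 DAF.

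In surface lipid synthesis 4 of 17 tested genes of fatty acid elongation and 3 of 35 of cutin, suberine and wax synthesis were higher, while 0 and 2 were lower (5.71% of the 35, against 3.57% of all genes). One of the lower genes, Aco011763, had 175 counts summed over the 90 DAF libraries, 224 at 60 DAF and 2571 at 120 DAF. It differed by -2.52 ± 0.62 (adjusted p = 0.043), and its call was lost without any one library other than replicate 2 of 120 DAF. The higher count was 1 or 2 for elongation without any one library other than replicate 2 of 120 DAF, and 1 for wax synthesis without replicate 1 or 2 of 60 or 90 DAF. The CER1 type gene Aco008234, for the enzyme that makes wax alkanes, had 11.2, 4.84 and 8.54 FPKM at 90 DAF, 1.44, 1.10 and 0.868 FPKM at 60 DAF and 0.597, 0.397 and 0.582 FPKM at 120 DAF. Its 9.43-fold higher level (3.24 ± 0.31, adjusted p = 0.0042) was also called against each age alone, by 2.83 against 60 DAF (adjusted p = 0.0367) and 3.65 against 120 DAF (adjusted p = 0.00276). Without any one 60 DAF library or replicate 3 of 120 DAF the call against 60 DAF alone was lost. Only 2 genes in all were called higher against that age without replicate 1 of 90 DAF. The ketoacyl reductase gene Aco001289, for a step of fatty acid elongation, stood at 8.26, 8.23 and 6.18 FPKM, against 1.04 to 5.69 FPKM at 60 DAF and 0.317 to 0.499 FPKM at 120 DAF (2.57 ± 0.46, adjusted p = 0.0178). Replicate 3 of 60 DAF, at 5.69 FPKM, came close to the lowest 90 DAF library.

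Phenylpropanoid synthesis, which leads to lignin and flavonoids, held 17 higher (12.3%) and 7 lower (5.07%) genes of 138 tested (median 0.21). Over all genes 5.49% were higher and 3.57% lower. The higher count was 9, 11 and 9 without replicates 1, 2 and 3 of 60 DAF, and the lower count was 3 or 4 without replicate 2 or 3 of 60 DAF, replicate 2 of 90 DAF or replicate 1 or 3 of 120 DAF. Flavonoid biosynthesis held 9 higher (16.4%) and 0 lower of 55 (median 0.62), with 5, 5, 4 and 5 higher without replicates 1, 2 and 3 of 60 DAF and replicate 1 of 120 DAF. Hydroxycinnamoyl transferase Aco002136 (HCT), at the branch to lignin monomers, had 34.1, 24.0 and 62.6 FPKM at 90 DAF, 3.24, 10.8 and 3.85 FPKM at 60 DAF and 0.332, 0.1001 and 0.414 FPKM at 120 DAF. It was 28.2-fold higher (4.82 ± 0.56, adjusted p = 0.00557) without overlap. Caffeoyl-CoA methyltransferase Aco000945, a lignin step, was 6.201-fold higher (2.63 ± 0.46, adjusted p = 0.0169, and 1.65 without replicate 3 of 90 DAF), at 23.7, 13.3 and 63.5 FPKM against 6.08 to 9.40 and 2.95 to 4.01 FPKM. The most highly expressed flavonoid list member, the methyltransferase Aco018902, was not called (1.61 ± 0.58, adjusted p = 0.117, and 0.50 without replicate 3 of 90 DAF).

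On the branch to delphinidin pigments, flavonoid 3',5'-hydroxylase Aco017169 stood at 5.65, 6.62 and 5.48 FPKM at 90 DAF, 2.23, 4.39 and 2.56 FPKM at 60 DAF and 0, 0.110 and 0 FPKM at 120 DAF. The 90 DAF libraries were the highest (3.92 ± 0.70, adjusted p = 0.0178, and 6.29 without replicate 2 of 120 DAF), with an adjusted p of 0.0507 and 0.0528 without replicates 1 and 3 of 60 DAF. Flavanone 3-hydroxylase Aco018609, an earlier step, was not a peak gene: its counts summed to 1017 at 60 DAF, 1870 at 90 DAF and 0 at 120 DAF, and the FPKM ranges at 60 and 90 DAF overlapped (adjusted p = 0.0139, and 0.0538 by limma voom with sample weights). A phenylalanine ammonia-lyase gene, Aco020618, of the entry step, was among the dip genes. It had 0.922, 0.785 and 0.546 FPKM at 90 DAF, 1.67 to 3.11 FPKM at 60 DAF and 11.5 to 34.9 FPKM at 120 DAF, 11.3-fold lower (-3.50 ± 0.44, adjusted p = 0.00659).

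Of 69 tested genes with peroxidase activity 9 were higher and 1 lower (5 higher without replicate 1 of 60 DAF). All 9 higher genes were peak genes, against 587 of 922 over all genes tested. Class III peroxidases act on phenolics in the cell wall. Peroxidase Aco020332 had 43.3, 50.2 and 70.7 FPKM at 90 DAF, 5.37, 20.8 and 34.4 FPKM at 60 DAF and 0.266, 0 and 0.389 FPKM at 120 DAF (4.55 ± 0.75, adjusted p = 0.014). Its 60 DAF libraries spread widely, from 5.37 to 34.4 FPKM, and stayed below all 90 DAF libraries. Peroxidase Aco026779 summed to 526 counts at 90 DAF, 53 at 60 DAF and 0 at 120 DAF (adjusted p = 0.00445). It was low, at 2.48 to 4.87 FPKM at 90 DAF, and reached 1 FPKM at that age only, through which it passed the filter. The 2 chitinase genes called, which encode defence enzymes against fungal walls, went opposite ways. Aco018556 was 5.28-fold higher (525, 689 and 846 FPKM at 90 DAF, 256 to 298 FPKM at 60 DAF and 35.9 to 71.9 FPKM at 120 DAF, adjusted p = 0.0042), and Aco011824 was 8.89-fold lower (13.5, 15.1 and 16.5 FPKM against 77.4 to 120 and 82.7 to 249 FPKM, adjusted p = 0.00659).

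Plant hormone signal transduction as a whole stayed near the background for lower genes and above it for higher ones. Of 259 tested 21 were higher (8.11%, against 5.49% of all genes) and 8 lower (3.09%, against 3.57%), with a median of 0.05. The higher count was 12, 13 and 10 without replicates 1, 2 and 3 of 60 DAF and 13 without replicate 1 of 120 DAF, and the lower count was 4 or 5 without any one library other than replicate 3 of 90 DAF or replicate 2 of 120 DAF. The higher members included some receptor and auxin carrier genes, and no count by type of protein was made. The PYL type abscisic acid receptor gene Aco000963 had 707 counts over the 90 DAF libraries (16.3, 7.46 and 5.48 FPKM), 8 at 60 DAF and 0 at 120 DAF (adjusted p = 0.0169). A second one, Aco002505, stood at 143, 56.3 and 80.3 FPKM at 90 DAF, 26.5 to 62.4 FPKM at 60 DAF and 0.382 to 2.56 FPKM at 120 DAF, so that it separated 90 from 120 DAF and overlapped with 60 DAF (3.26 ± 0.49, adjusted p = 0.0112). For the ethylene receptor gene Aco004737 the 90 DAF libraries summed to 413 counts, against 55 at 120 DAF and 0 at 60 DAF (adjusted p = 0.00659). Its level was low, at 1.23 to 3.02 FPKM at 90 DAF and 0.17 to 0.49 FPKM at 120 DAF. Like Aco000963 it reached 1 FPKM at 90 DAF only, so both genes passed the filter through the age at which they were high. The AUX1 type auxin uptake carriers Aco014099 (1.55 ± 0.27, adjusted p = 0.0159) and Aco014100 (1.84 ± 0.25, adjusted p = 0.00774) were peak genes, but they overlap in position on contig 14 and may share reads.

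The lower members included an Aux/IAA repressor gene, a type A response regulator gene and a TGA type factor gene. Not all repressors and response factors were lower: 2 of 7 JAZ and 3 of 15 MYC2 genes were higher and 0 lower. The Aux/IAA auxin repressor gene Aco005634 had 2.81, 2.24 and 1.94 FPKM at 90 DAF, 26.2, 31.0 and 49.9 FPKM at 60 DAF and 86.4, 60.2 and 40.9 FPKM at 120 DAF. The 90 DAF values lay far below all others, and the gene was 22.5-fold lower (-4.49 ± 0.35, adjusted p = 0.00233). Type A response regulator Aco003366 (ARR-A), which damps cytokinin signalling and was the most highly expressed gene of the list, stood at 275, 290 and 250 FPKM at 90 DAF, 874, 631 and 1012 FPKM at 60 DAF and 492, 452 and 544 FPKM at 120 DAF. It was 2.64-fold lower (-1.40 ± 0.19, adjusted p = 0.00787). TGA type factor Aco001167, of the salicylic acid branch, was 3.07-fold lower (-1.62 ± 0.17, adjusted p = 0.00445), at 22.8 to 25.9 FPKM against 48.9 to 56.2 and 76.8 to 106 FPKM. In each of the 3 genes 90 DAF was the low point in every library.

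Oxidative phosphorylation held the largest number of dip genes among the 46 lists. Of 139 tested genes of oxidative phosphorylation 36 were lower (25.9%) and 4 higher (2.88%), against 3.57% and 5.49% of all genes. A log2 difference below 0 was seen in 96 of the 139 (median -0.30), against 8027 of 16791 over all genes tested. Of the 36 lower genes 34 were dip genes, against 475 of 599 over all genes tested. The lower count was 15 to 23 without any one library other than replicates 2 (29) and 3 (27) of 90 DAF or replicate 2 of 120 DAF (30), and 18 with total count scaling. Sorted by complex from KEGG orthologs, a grouping chosen after the values were seen, 11 of 28 complex I genes were lower (median -0.50), 2 of 5 of complex II, 2 of 10 of complex III, 2 of 11 of complex IV, 9 of 16 of the mitochondrial ATP synthase (median -0.63) and 10 of 30 of the vacuolar proton pump (median -0.23). Complex I had 3 to 6 lower without any one library other than replicate 2 of 120 DAF (8), complex III had 1 without replicate 1 or 3 of 60 DAF or replicate 1 of 90 DAF, and complex IV had 0 or 1 without any one library. For the ATP synthase 5 and 4 were lower without replicates 1 and 3 of 60 DAF and 4 with total count scaling, and for the vacuolar pump 6, 5 and 5 without replicates 1 and 3 of 60 DAF and replicate 1 of 90 DAF. The genes named next held their calls in the contrast with the mean of 60 and 120 DAF whichever library was left out.

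In the respiratory chain, the complex I subunit gene Aco011929 stood at 147, 150 and 135 FPKM at 90 DAF, 249, 260 and 269 FPKM at 60 DAF and 218, 184 and 170 FPKM at 120 DAF. It was 1.72-fold lower (-0.78 ± 0.12, adjusted p = 0.012). Succinate dehydrogenase subunit Aco014511 of complex II, which also works in the citrate cycle, had 71.4, 59.3 and 55.3 FPKM, against 107 to 142 and 94.6 to 111 FPKM (1.98-fold lower, adjusted p = 0.00791). Complex III subunit Aco021806 had 67.4, 64.5 and 54.3 FPKM, against 114 to 117 and 95.8 to 106 FPKM (1.93-fold lower, adjusted p = 0.00608). These 3 genes were also called against each age alone, with log2 differences of -0.86, -0.96 and -0.91 against 60 DAF and -0.70, -1.01 and -0.99 against 120 DAF in that order. Their calls against 60 DAF were lost without replicate 2 or 3 of 60 DAF, when no gene was called lower against that age. Only 3, 3 and 1 genes in all were called lower against it without replicate 1 of 60 DAF, replicate 1 of 90 DAF and replicate 3 of 120 DAF. ATP synthase subunit O (Aco012728), the stalk protein of the enzyme, stood at 230, 200 and 184 FPKM at 90 DAF, 293 to 309 FPKM at 60 DAF and 296 to 325 FPKM at 120 DAF (1.68-fold lower, adjusted p = 0.0109). The one complex I entry called higher was Aco017814, described as acyl carrier protein 4 and listed there through its ortholog. It followed the green genes, with 69.3, 253 and 45.4 FPKM at 90 DAF, 13.0 to 22.6 FPKM at 60 DAF and 1.38 to 2.91 FPKM at 120 DAF (4.05 ± 0.51, adjusted p = 0.00659, and 2.99 without replicate 2 of 90 DAF).

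The vacuolar proton pump acidifies the vacuole and drives the storage of organic acids there. Subunit G (Aco022226) stood at 766, 822 and 661 FPKM at 90 DAF, 1460, 1531 and 1597 FPKM at 60 DAF and 1775, 1304 and 1416 FPKM at 120 DAF. It was 2.25-fold lower (-1.17 ± 0.15, adjusted p = 0.0073) and was called against 60 DAF (-1.04, adjusted p = 0.0425) and 120 DAF (-1.298, adjusted p = 0.00381) alone. The call against 60 DAF alone was lost without replicate 2 or 3 of 60 DAF. At most 3 genes in all were called lower against that age without replicate 1 of 60 or 90 DAF or replicate 3 of 120 DAF. Subunit E (Aco000352) had 99.7, 60.6 and 72.4 FPKM, against 158 to 186 and 314 to 420 FPKM (3.57-fold lower, adjusted p = 0.00526). Subunit B (Aco015226), part of the ATP-binding head, had 477, 361 and 377 FPKM, against 645 to 772 and 698 to 841 FPKM (2.03-fold lower, adjusted p = 0.012). Groups did not overlap in any of the 3 subunits.

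**Figure D4:**
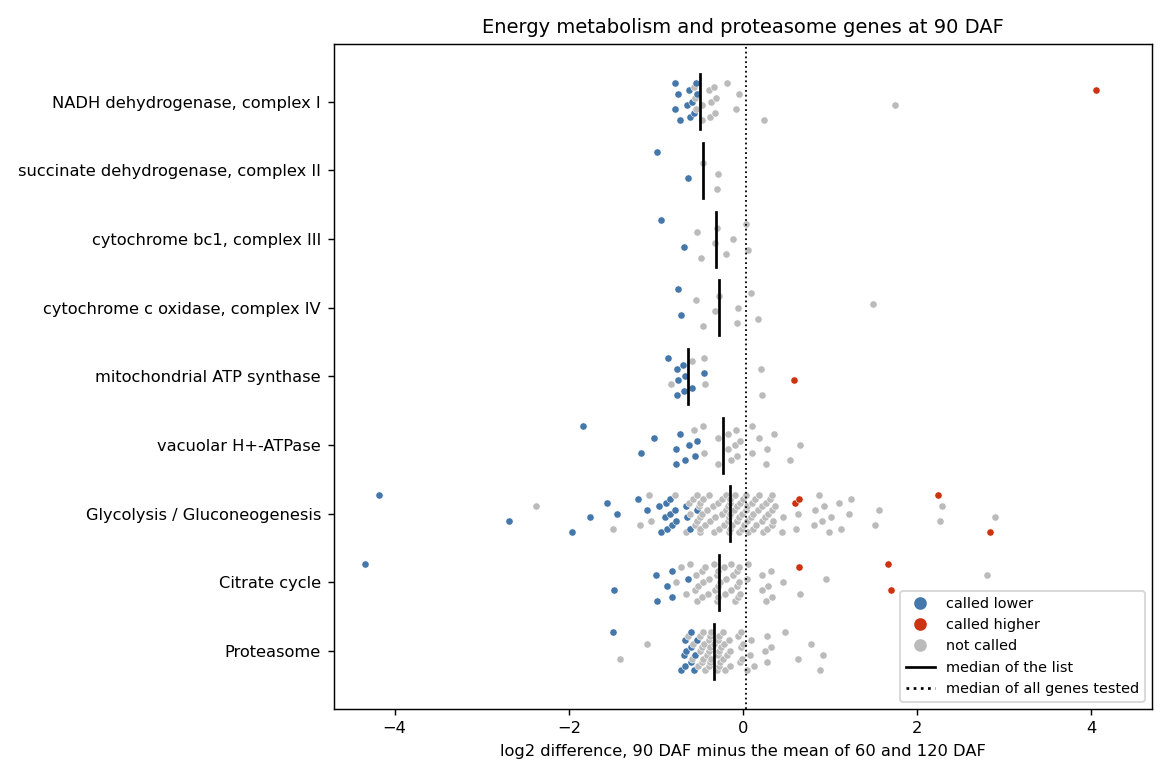
Log2 difference of each tested gene, 90 DAF minus the mean of 60 and 120 DAF. The lists are the respiratory complexes, the mitochondrial ATP synthase, the vacuolar proton pump (H+-ATPase), glycolysis, the citrate cycle and the proteasome. Blue marks genes called lower, red genes called higher and grey the rest. A black bar stands at the median of each list and a dotted line at the median of all genes tested (0.03). Medians lie left of the dotted line in each list under TMM scaling, lowest for the mitochondrial ATP synthase (-0.63), and most blue genes lie between 0 and -2.

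Glycolysis held 22 lower and 4 higher genes of 126 tested (median -0.15). Of the 22 lower genes 18 were dip genes, near the 475 of 599 over all genes tested. The lower count was 9 to 13 without any one library other than replicate 3 of 90 DAF (17) or replicate 2 of 120 DAF (15), and 14 with total count scaling, under which the median was 0.00 against 0.18 for all genes. Glyceraldehyde-3-phosphate dehydrogenase (GAPDH) Aco018596, a highly expressed enzyme of the payoff phase, had 684, 493 and 376 FPKM at 90 DAF, 1276, 1355 and 1272 FPKM at 60 DAF and 906.3, 892 and 812 FPKM at 120 DAF. This gene was 2.31-fold lower (-1.21 ± 0.17, adjusted p = 0.00925) and was called against 60 DAF (-1.36, adjusted p = 0.0367) and against 120 DAF (-1.06, adjusted p = 0.0107) alone. Without replicate 2 or 3 of 60 DAF the call against 60 DAF alone was lost. At most 3 genes in all were called lower against that age without replicate 1 of 60 or 90 DAF or replicate 3 of 120 DAF. A second GAPDH gene, Aco004676, had 56.8, 51.5 and 31.9 FPKM, against 91.3 to 132 and 175 to 265 FPKM (3.91-fold lower, adjusted p = 0.0063). Triose phosphate isomerase Aco024987 had 407, 464 and 255 FPKM, against 593 to 627 and 675 to 716 FPKM (1.96-fold lower, adjusted p = 0.0171). Phosphoglycerate kinase Aco006606 was 1.71-fold lower (adjusted p = 0.0194, and 0.0519 without replicate 2 of 60 DAF). Both GAPDH genes and the isomerase were below all other libraries in every 90 DAF library. Pyruvate kinase Aco006068, of the last step, was higher instead (0.59 ± 0.12, adjusted p = 0.0253). Its adjusted p was 0.0584 to 0.0655 without any one of the 3 libraries of 60 DAF, replicate 1 of 90 DAF or replicates 1 and 3 of 120 DAF.

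Genes of organic acid metabolism were called in both directions. In the citrate cycle 8 of 58 genes were lower (13.8%) and 3 higher (5.17%), against 3.57% and 5.49% of all genes (median -0.28). The lower count was 4 without any one 60 DAF library or replicate 1 of 120 DAF and 4 with total count scaling. Phosphoenolpyruvate carboxylase Aco010025 had 193, 178 and 54.2 FPKM at 90 DAF, 684, 801 and 1076 FPKM at 60 DAF and 451, 513 and 505 FPKM at 120 DAF. It was 5.21-fold lower (-2.38 ± 0.38, adjusted p = 0.0131). Aconitase Aco009034, which isomerises citrate, had 0.151, 0.480 and 0.172 FPKM, against 4.10 to 10.9 and 1.92 to 5.03 FPKM (20.3-fold lower, log2 difference -4.34 ± 0.61, adjusted p = 0.009, and -5.01 without replicate 2 of 90 DAF). Both were lowest in every library of 90 DAF.

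For malate dehydrogenase and ATP-citrate lyase 1 gene was called lower and another higher at 90 DAF. Malate dehydrogenase Aco013935 stood at 631, 700 and 373 FPKM at 90 DAF, 1262 to 1334 FPKM at 60 DAF and 646 to 925 FPKM at 120 DAF, 2.001-fold lower (-1.0006 ± 0.20, adjusted p = 0.0225). The FPKM ranges of this gene at 90 and 120 DAF overlapped. Its adjusted p was 0.0531, 0.054 and 0.0562 without replicates 1, 2 and 3 of 60 DAF, 0.054 and 0.0503 without replicate 1 of 90 or 120 DAF and 0.0563 with total count scaling. Malate dehydrogenase Aco004996 had 124, 194 and 69.7 FPKM at 90 DAF, 36.2 to 45.5 FPKM at 60 DAF and 26.7 to 35.8 FPKM at 120 DAF, 3.17-fold higher (1.66 ± 0.25, adjusted p = 0.0108). ATP-citrate lyase makes acetyl-CoA in the cytosol. Its gene Aco025304 was 3.25-fold higher (73.2, 64.1 and 82.4 FPKM against 50.9 to 60.9 and 4.704 to 12.4 FPKM, adjusted p = 0.0127), and its gene Aco001770 was 2.80-fold lower (5.75, 4.52 and 3.37 FPKM against 7.26 to 10.8 and 11.02 to 16.6 FPKM, adjusted p = 0.0101).

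Starch and sucrose metabolism showed no single direction, with 20 higher (8.93%) and 14 lower (6.25%) of 224 tested (median 0.08), against 5.49% and 3.57% of all genes. The higher count was 8 to 13 without any one 60 DAF library, replicate 2 of 90 DAF or replicate 1 or 3 of 120 DAF, and the lower count was 7 to 9 without any one 60 DAF library, replicate 1 or 2 of 90 DAF or replicate 1 or 3 of 120 DAF. Sucrose phosphate synthase Aco017378 (SPS), which builds sucrose, had 2.80, 7.51 and 0.778 FPKM at 90 DAF, 157, 36.1 and 69.6 FPKM at 60 DAF and 104, 124 and 67.4 FPKM at 120 DAF. It was 28.8-fold lower (-4.85 ± 0.85, adjusted p = 0.0169), with an adjusted p of 0.0519 without replicate 1 of 90 DAF and a log2 difference of -5.88 without replicate 2. The highest 90 DAF library, at 7.51 FPKM, lay below the lowest of the others, at 36.1 FPKM.

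Among the genes for sucrose synthase, which cleaves sucrose in tissues that import it, 1 was lower and another higher. Aco006349 had 129, 129 and 38.1 FPKM at 90 DAF, 497 to 700 FPKM at 60 DAF and 427 to 508 FPKM at 120 DAF (6.196-fold lower, adjusted p = 0.00898). Aco009508 had 193, 299 and 221 FPKM at 90 DAF, 99.0 to 208 FPKM at 60 DAF and 7.01 to 21.9 FPKM at 120 DAF (5.33-fold higher, adjusted p = 0.0137), overlapping with 60 DAF. On the starch side, starch synthase Aco010848 stood at 13.4, 14.7 and 8.77 FPKM, against 43.0 to 73.002 and 31.7 to 35.7 FPKM (4.02-fold lower, adjusted p = 0.0042). Chloroplastic phosphoglucomutase Aco017741, which links hexose phosphates to starch, stood at 16.3, 21.0 and 12.9 FPKM, against 56.6 to 66.6 and 22.9 to 32.0 FPKM (2.73-fold lower, adjusted p = 0.00565). Beta-amylase Aco030337, a starch-degrading enzyme and the most highly expressed gene of the pathway, was not called (-0.50 ± 0.36, adjusted p = 0.42).

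The circadian pathway held 8 lower genes (10.4%) and 1 higher gene (1.3%) of 77 tested, against 3.57% and 5.49% of all genes. Its median was -0.12, and 0.04 with total count scaling against 0.18 for all genes. Log2 differences above 0 were seen in 31 of the 77, against 8764 of 16791 over all genes tested. All 8 lower genes were dip genes, as were 475 of 599 over all genes tested. The lower count was 5, 4 and 4 without replicates 1, 2 and 3 of 60 DAF and 4 without replicate 1 of 90 DAF. The lower genes included 3 of the morning clock factor LHY. LHY genes were not counted as a list, so no share of them called is given. LHY gene Aco011903 had 0.779, 0.170 and 2.05 FPKM at 90 DAF, 27.8, 108 and 51.3 FPKM at 60 DAF and 8.41, 9.46 and 11.8 FPKM at 120 DAF. It was 26.4-fold lower (-4.72 ± 0.87, adjusted p = 0.0194), with an adjusted p of 0.0573 without replicate 1 of 90 DAF and a log2 difference of -5.89 without replicate 3. LHY gene Aco009204 had 3.10, 1.95 and 2.79 FPKM, against 7.39 to 14.6 and 5.14 to 7.69 FPKM (3.52-fold lower, adjusted p = 0.0132), whichever library was left out. Aco016649 was lower by -2.06 ± 0.44 (adjusted p = 0.0281), with 0.0557 to 0.0798 without any one 60 DAF library, replicate 1 of 90 DAF or replicate 3 of 120 DAF, and -2.75 without replicate 2 of 90 DAF.

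Among the called genes of this pathway were 3 for CDF factors, which repress flowering genes early in the day, and CDF genes were not counted as a list. CDF gene Aco001684 had 2.10, 1.17 and 1.88 FPKM at 90 DAF, 15.0 to 21.9 FPKM at 60 DAF and 2.28 to 3.59 FPKM at 120 DAF (-2.16 ± 0.28, adjusted p = 0.0073). Its gap was to 60 DAF, since the difference from 120 DAF alone was -0.96 (adjusted p = 0.0586). Aco009612 had 6.05, 5.72 and 2.71 FPKM, against 21.1 to 43.1 and 4.89 to 11.1 FPKM (-1.91 ± 0.36, adjusted p = 0.0199), and its FPKM ranges at 90 and 120 DAF overlapped although TMM-scaled counts did not. The calls of CDF gene Aco018657, FT type Aco010684 and PRR5 type Aco013137 were lost without any of 4, 7 and 7 libraries, with adjusted p-values up to 0.0666, 0.0884 and 0.0836, and that of Aco013137 also with total count scaling. The labels do not give the hour of sampling, so age and time of day cannot be told apart for these genes. The same holds for any gene of the other lists with a daily rhythm.

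**Figure D5:**
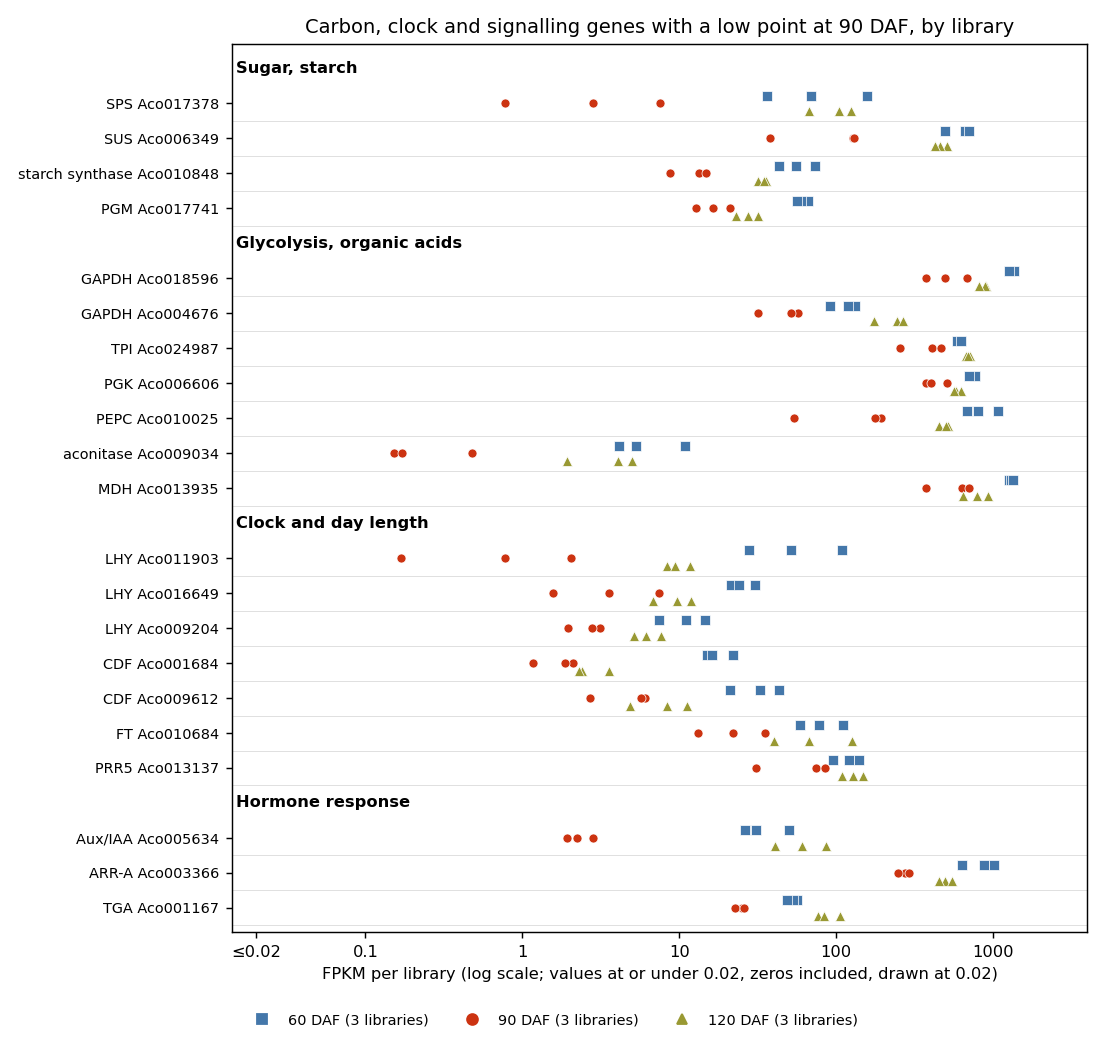
FPKM per library (log axis, values at or under 0.02 drawn at 0.02) of sugar, starch, glycolysis, organic acid, clock and hormone response genes called lower at 90 DAF, with squares for 60 DAF, circles for 90 DAF and triangles for 120 DAF, 3 libraries each. The circles lie to the left of the other symbols for SPS Aco017378 (0.778 to 7.51 FPKM) and Aux/IAA Aco005634 (1.94 to 2.81 FPKM), and close to the triangles for the CDF genes.

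A minority of the proteasome genes were lower, by small amounts. Of 71 tested proteasome genes 12 were lower (16.9%, against 3.57% of all genes) and 0 higher. Log2 differences below 0 were seen in 58 of them (median -0.34), against 8027 of 16791 over all genes tested. Only 1 to 4 were called lower without any one of the 9 libraries and 2 with total count scaling. In ubiquitin mediated proteolysis 7 of 178 tested genes were lower (3.93%, against 3.57% of all genes) and 6 higher, and in autophagy 0 of 44 were called. The proteasome gene Aco006518 stood at 185, 141 and 174 FPKM at 90 DAF, 218 to 246 FPKM at 60 DAF and 254 to 264 FPKM at 120 DAF (-0.71 ± 0.15, adjusted p = 0.0259). Its adjusted p was 0.0548 to 0.0628 without any one 60 DAF library, replicate 1 of 90 DAF or replicate 1 or 3 of 120 DAF. In DNA replication 5 of 50 were lower (10%, against 3.57% of all genes) and 0 higher (median -0.12, and 0.04 with total count scaling against 0.18 for all genes). The lower count was 1 to 3 without any one library other than replicates 2 and 3 of 90 DAF or replicate 2 of 120 DAF. The DNA polymerase delta small subunit Aco011910 had 14.9, 13.8 and 11.6 FPKM, against 27.2 to 30.9 and 19.1 to 20.9 FPKM (1.98-fold lower, adjusted p = 0.00651). Histone genes under the nucleosome term had 0 higher and 1 lower of 38 (2.63% lower, against 3.57% of all genes).

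Several of the largest differences were in genes known by their GO terms. The transporter gene Aco014965 had 43.7, 23.2 and 57.2 FPKM at 90 DAF, 5.78 to 11.7 FPKM at 60 DAF and 0 to 0.0444 FPKM at 120 DAF (6.14 ± 0.50, adjusted p = 0.00233). Aco011137, annotated with negative regulation of transcription, had 2664 counts at 90 DAF, 627 at 60 DAF and 0 at 120 DAF (adjusted p = 0.00229). Downward, the serine carboxypeptidase gene Aco013336 had 1.46, 0.667 and 0.606 FPKM at 90 DAF, 12.6 to 16.9 FPKM at 60 DAF and 8.25 to 17.8 FPKM at 120 DAF (17.2-fold lower, adjusted p = 0.0042). The transporter gene Aco000112 had 8.04, 4.15 and 2.86 FPKM, against 30.9 to 41.8 and 38.3 to 49.1 FPKM (8.93-fold lower, adjusted p = 0.0042). The AP1/FUL type MADS box gene Aco012428, of a family that sets floral meristem and fruit identity, had 0.0587, 0 and 0 FPKM, against 0.615 to 3.38 and 1.02 to 3.77 FPKM (adjusted p = 0.0188, and 0.0581 by limma voom with sample weights). All 5 separated 90 DAF from every other library, and 3906 tested genes, 301 of them called, carried no annotation at all.

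The contrasts with each age alone share the 90 DAF libraries, and their counts are given side by side. Against 60 DAF 132 genes (0.786%) were called, 54 higher (0.322%) and 78 lower (0.465%). Against 120 DAF 2915 (17.4%) were called, 1540 higher (9.17%) and 1375 lower (8.19%). Called in the same direction against both were 34 higher genes (0.202%) and 56 lower ones (0.334%), and both counts were 0 without replicate 2 or 3 of 60 DAF. With any other single library left out the 2 counts ran from 0 to 53 and from 1 to 94. DXR (Aco016409), the CER1 type gene Aco008234 and antenna gene Aco003394 were among the 34. Among the 56 were Aux/IAA Aco005634, starch synthase Aco010848, phosphoglucomutase Aco017741, GAPDH Aco018596, sucrose synthase Aco006349, the vacuolar pump subunit Aco022226 and ARR-A Aco003366.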

How the data were processed

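Peels of 3 fruit ages were measured by poly(A) RNA-seq (paired-end, Illumina NovaSeq), with 3 libraries per age, per the labels. The authors deposited raw read counts per gene for each library, per the file headers. The authors' FPKM values stand beside them, per the file headers, with each of the 65846 values at count 0 written as 1e-04, read here as 0. The submitters' processing notes name HISAT2 2.0, StringTie 1.3.0 and Bowtie 0.12.2 with no role for any of them, and neither a genome build nor a strand setting is given. Near-identical or overlapping genes may therefore share reads.

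The deposited counts went unaltered into the test. A gene was kept when 3 or more libraries reached 1 FPKM, and 1 edgeR quasi-likelihood model (TMM scaling, 6 residual degrees of freedom) was fitted to all 9 libraries. The contrast was 90 DAF minus 0.5 of the sum of 60 and 120 DAF on the log2 scale, with Benjamini-Hochberg adjustment over 16791 genes and a threshold of 0.05. Folds carry TMM scaling and the FPKM values do not, so ratios of printed FPKM differ from them. Standard errors are the log2 difference divided by the square root of F. The code was tested on simulated data.

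Gene lists came from the KEGG, GO and KEGG ortholog columns: 46 lists, described by counts and medians without a set test, and 15 enzyme or complex lists added after values were seen. The named-gene rule took the 10 largest differences each way among peak and dip genes with a mean of at least 5 FPKM, up to 3 called members of each list, and the most highly expressed member of 8 lists. It gave 133 genes, of which the text prints some. Another 52 were chosen after their values were seen. The contrast, members and lists were chosen with earlier results of these data known. No gene matched the RefSeq table at hand, so no sequence is printed. Errors cover the spread between libraries.

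Alternatives were median-ratio and total count scaling, DESeq2, limma on log2 FPKM with pseudocounts of 1 and 0.1, no filter, a filter at 5 FPKM, limma voom with sample weights, the replicate number as a block, each library left out, and, chosen after seeing the data, 2 libraries left out together. Software was DESeq2 1.42.0, edgeR 4.0.16 and limma 3.58.1 under R 4.3.3, with matplotlib 3.10.9 and pandas 2.3.3 under Python 3.11.15.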

Additional observations from a re-analysis of the deposited data

How the results depend on the processing

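Directions were stable and calls were not. Of 181 named genes called, none changed sign under any alternative. These 181 genes were chosen as called in the same libraries, so their kept signs are no separate support. Their calls were kept in 181 with median-ratio scaling, 178 of 178 with a value by DESeq2, 175 with total count scaling, 157 and 168 by limma with pseudocounts of 1 and 0.1, 159 with sample weights and 109 to 159 with 1 library left out. Ferredoxin Aco024340, not called, turned from 0.158 to -0.029 (adjusted p = 0.912) without replicate 2 of 90 DAF and ranged up to 0.291 (adjusted p = 0.24) without replicate 3. Replicate 2 of 90 DAF had the lowest sample weight, 0.319, and replicate 3 the next, 0.364. Where a count moved, the cause was not tested unless named.

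With 1 library left out, and so fewer samples, the count of genes called ran from 549 to 1493, of higher genes from 341 to 1042, of lower genes from 208 to 567, of peak genes from 280 to 843 and of dip genes from 191 to 467. Against 60 DAF it ran from 0 to 129 higher and 0 to 147 lower, against 120 DAF from 622 to 1856 higher and 472 to 1308 lower, and against both from 0 to 53 higher and 0 to 94 lower. Without replicate 1 of 90 DAF and replicate 2 of 120 DAF together the counts in the same order were 769, 486, 283, 368, 258, 5, 10, 874, 703, 4 and 10.

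DESeq2 called 3357 genes, 1868 higher and 1489 lower, with 898 peak and 849 dip genes, 707 higher and 730 lower against 60 DAF, 2536 and 2122 against 120 DAF, and 393 and 437 against both. With sample weights 2430 were called, 1393 higher and 1037 lower, 609 higher and 726 lower against 60 DAF, and 323 and 286 against both. Total count scaling left 360 lower genes, 262 dip genes, 49 lower against 60 DAF, 2565 higher and 649 lower against 120 DAF and 33 lower against both. By limma with a pseudocount of 1 there were 298 dip genes, 143 higher and 150 lower against 60 DAF, 2468 higher and 713 lower against 120 DAF and 120 higher against both. With 0.1 these were 311 dip genes, 100 higher against 60 DAF, 2526 higher and 714 lower against 120 DAF and 76 higher against both. Without a filter 27 higher and 49 lower genes were called against 60 DAF and 18 and 34 against both.

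The replicate number as a block gave 666 genes, 402 higher and 264 lower, with 274 peak and 204 dip genes, 2 higher and 8 lower against 60 DAF, 886 lower against 120 DAF, and 2 higher and 7 lower against both. It shared 623 of the 1521 calls (41%). Deviations of same-numbered libraries correlated at -0.339 to 0.390 and nothing in the labels ties the numbers across ages, so they were not taken as pairs.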
